A study of Mus musculus with 2 samples.

Results

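The 10 genes described here belong to the Notch pathway: the receptors Notch1, Notch2 and Notch3, the ligands Dll1, Dll3 and Jag1, the glycosyltransferase Mfng and the Hes family genes Hes1, Hes5 and Hes6. They were chosen by name out of the 27998 genes listed for each library, and all 10 were found once. Their RNA was counted as unique molecular identifiers (UMIs, each standing for 1 captured RNA molecule) in 2 single-cell libraries made with the 10x Genomics platform. The WT library came from C57BL/6 mice labelled wild type, and the cKO library from C57BL/6 mice labelled STINGf/f;Nestin-Cre, in which floxed STING (gene Tmem173) is recombined by a Cre that the Nestin promoter drives in neural progenitor cells and so also in their progeny. Tissue from both was taken at postnatal day 0; the labels call it telencephalic tissue and the methods of the study cerebral cortex. The study's text calls the control sample of this experiment both STING fl/fl and wild type, where the labels say wild type. The number of animals in each library is not given. With 1 library per genotype, the values below compare libraries and not genotypes, no p-value is given, and all intervals are 95% intervals that cover counting error only.

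Notch signalling passes from cell to cell: a ligand on one cell binds a receptor on its neighbour, the receptor is cleaved, and its intracellular part enters the nucleus and joins the DNA-binding protein Rbpj on the promoters of target genes. Hes1 and Hes5, the best known of these targets in the developing brain, are repressors that keep radial glia, the neural stem cells of the embryonic cortex, from turning into neurons. Intermediate progenitors and newborn neurons carry the Delta ligands, and in the blood vessel wall Notch3 is the receptor of mural cells. Hes6 differs from its relatives in that it promotes neuronal differentiation and acts against Hes1.

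The promoters of Hes5, the radial glial target, and of Hes6 are shown because these 2 genes are followed from cell to cell below. Each line holds the 250 bases before the RefSeq transcription start on GRCm38.p6, in capitals where it matches TGGGAA, the core of the Rbpj binding sequence, on either strand (TTCCCA is the same motif on the other strand). The Hes5 window lies at chr4:154960673-154960922 on the plus strand and the Hes6 window at chr1:91414039-91414288 on the minus strand.
Hes5: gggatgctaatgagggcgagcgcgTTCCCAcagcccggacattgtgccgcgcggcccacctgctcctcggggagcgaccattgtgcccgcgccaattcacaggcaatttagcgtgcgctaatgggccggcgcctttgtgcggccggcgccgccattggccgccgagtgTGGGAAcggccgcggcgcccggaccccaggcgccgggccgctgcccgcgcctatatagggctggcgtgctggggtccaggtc
Hes6: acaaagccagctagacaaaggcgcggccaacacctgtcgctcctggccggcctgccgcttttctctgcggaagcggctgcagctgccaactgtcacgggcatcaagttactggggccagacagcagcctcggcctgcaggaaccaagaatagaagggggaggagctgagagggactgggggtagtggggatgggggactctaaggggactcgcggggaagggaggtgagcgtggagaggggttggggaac
The Hes5 window held 2 matches, 1 on each strand, which began 226 and 82 bases before the start, and the Hes6 window held none. Of the 32851 promoter windows in the RefSeq table, 21.6% held at least 1 match and 2.77% held 2 or more. The table covered 8 of the 10 genes with 10 windows, and 1 of these 10, that of Hes5, held the motif. A match to 6 letters is a description of the sequence and not evidence of binding.

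Both libraries were of similar size, with 69554624 UMIs in 10715 barcodes for WT and 67448785 UMIs in 9198 barcodes for cKO. After removal of barcodes with fewer than 500 genes or over 10% mitochondrial UMIs and of called doublets, 6601 WT and 5974 cKO cells remained, with medians of 6552 and 7537 UMIs per cell. The targeted gene Tmem173 had 126 UMIs in the WT and 18 in the cKO library. Xist, expressed from the inactive X chromosome, was counted at 10 UMIs (WT) and 71370 UMIs (cKO) while Y-linked genes had 9771 and 6, so the sex of the animals and the genotype cannot be told apart. Among the barcodes, 19 sequences occurred in both libraries.

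Cells were placed in groups by how many genes of a marker list had a UMI, with none of the 10 genes in any list, and each group name below stands for that marker rule. There were 825 WT and 624 cKO radial glia, 148 and 172 intermediate progenitors, 3927 and 3918 neuronal cells and 174 and 78 vascular cells. The levels of the marker lists follow from the rule that set the groups, so they describe the groups and are no test of their names. Summed over the list, the 10 radial glia markers reached 7888 CPM in WT radial glia and 7296 CPM in cKO radial glia, and in neuronal cells 119.9 and 86.8 CPM. CPM here is the UMIs of a gene or list relative to all UMIs of the cell group, scaled to 1000000. The 10 endothelial markers summed to 10146 and 11002 CPM in vascular cells, against 35.6 and 34.5 in radial glia. The 8 neuronal markers summed to 9919 and 9258 CPM in neuronal cells and the 7 intermediate progenitor markers to 1671 and 1387 CPM in intermediate progenitors, against 894 and 671 CPM and 101 and 105 CPM in radial glia. Vascular cells included 60 WT and 16 cKO cells that met both the endothelial and the mural rule, with medians of 20699 and 26967.5 UMIs. These cells held 1580042 of the 2793987 UMIs of WT vascular cells and 512006 of the 1087546 UMIs of cKO vascular cells, so they weigh heavily in every vascular value below.

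**Figure D1:**
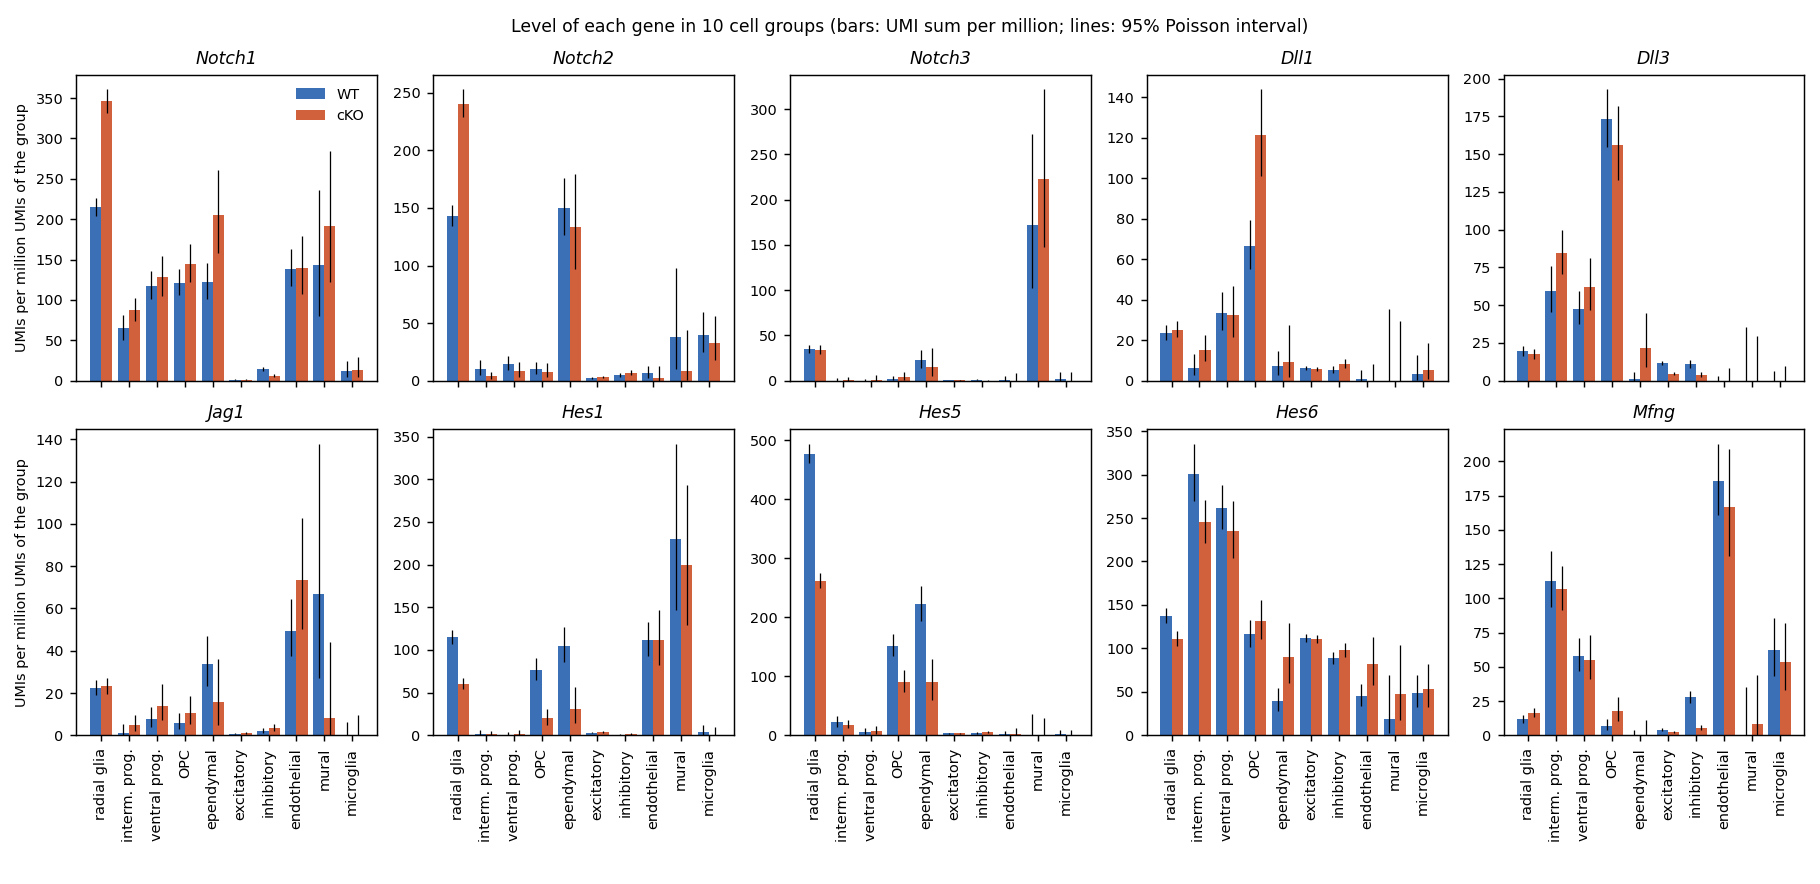
Level of each gene in CPM (y axis, linear, starting at 0) in 10 cell groups (x axis) of the WT library (blue) and the cKO library (orange), with black lines for 95% Poisson intervals. Hes5 was highest in radial glia, Dll1 and Dll3 in oligodendrocyte precursors (OPC), Notch3 and Hes1 in mural cells and Mfng in endothelial cells of both libraries.

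Notch1, the main receptor of neural progenitors, was highest in radial glia of both libraries, at 215 CPM (204.5 to 226.6, 1482 UMIs) in WT and 346 CPM (332 to 361, 2138 UMIs) in cKO. The groups that followed in WT were mural cells at 143 CPM and endothelial cells at 139 CPM, and the interval of the mural cells, which rested on 15 UMIs, overlapped that of radial glia; with a stricter cell filter mural cells were the highest group in WT. In intermediate progenitors Notch1 stood at 64.8 and 87.4 CPM in WT and cKO. Excitatory neurons had 1.23 and 1.21 CPM, the lowest level of Notch1 among the 10 groups in both libraries.

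Notch2 was shared by radial glia and ependymal cells. Radial glia had 143 CPM in WT and 240.7 in cKO, and ependymal cells 149.7 and 133.6, with overlapping intervals in WT but not in cKO. Microglia came next at 39.6 and 33.1 CPM, and intermediate progenitors had only 11 and 6 UMIs. Within radial glia Notch2 was lowest in the cycling cells, at 43.2 CPM in WT against 147 in noncycling cells without astrocyte markers and 205 in noncycling cells with them, an order also seen between cycling and noncycling cells of the cKO library (86.7, 313 and 293 CPM).

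Notch3 was highest in mural cells of the vessel wall in both libraries, although with a stricter cell filter radial glia led in cKO. Mural cells had 172 CPM (102 to 272) in WT and 223 CPM (148 to 322) in cKO, on 18 and 28 UMIs, while endothelial cells had a single UMI (WT) or none (cKO, where a count of 0, taken to allow 3 UMIs, allows up to 6.67 CPM). Radial glia were second with 34.6 and 34.3 CPM, below the interval of mural cells in both libraries and overlapping that of ependymal cells (22.4 and 15.5 CPM). Among radial glia, those with astrocyte markers had more (52.7 and 51.1 CPM) than those without (18.2 and 21.4 CPM).

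Of the ligands, Dll1 was highest in oligodendrocyte precursors, at 66.3 CPM in WT and 121 CPM in cKO. Ventral progenitors came second at 33.5 and 32.3 CPM followed by radial glia at 23.7 and 25.3 CPM, with overlapping intervals between these 2 groups in each library. Dll3, a divergent Delta ligand that acts inside the cell, had the same leading group, at 173 and 156 CPM in oligodendrocyte precursors, but with a stricter cell filter intermediate progenitors led in cKO. Intermediate progenitors followed with 59.3 and 84.3 CPM of Dll3 and ventral progenitors with 47.4 and 62.2 CPM. Both Delta genes were nearly absent from vascular cells, where Dll1 had 2 UMIs and Dll3 had 1 in WT and both had 0 in cKO, which allows up to 2.76 CPM.

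Jag1, a ligand of the Jagged class, was found in vessel cells, ependymal cells and radial glia. Endothelial cells had 49.6 CPM in WT and 73.3 CPM in cKO, against 22.5 and 23.1 CPM in radial glia and 0 UMIs in microglia of both libraries. Mural cells, which no longer led in WT with a stricter cell filter, stood at 66.9 CPM in WT on 7 UMIs and 8.0 CPM in cKO on 1 UMI, so their place in the order is not fixed by these counts. Ependymal cells had 33.6 CPM in WT (33 UMIs) and 15.5 CPM in cKO (5 UMIs), with intervals that overlapped those of radial glia. Mfng, which adds sugar to Notch receptors and changes which ligands they answer, was highest in endothelial cells (186 and 167 CPM) and second in intermediate progenitors (113 and 107 CPM); with groups set on 2000 UMIs per cell intermediate progenitors led in cKO. In radial glia Mfng was much lower, at 11.6 and 16.2 CPM.

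Hes5 was highest in radial glia, with no overlap with the next group in either library. There it reached 477 CPM (461 to 494, 3283 UMIs) in WT and 262 CPM (249 to 275, 1616 UMIs) in cKO, against 22.2 and 18.2 CPM in intermediate progenitors and 3.46 and 3.15 CPM in excitatory neurons. Ependymal cells (222 and 90.1 CPM) and oligodendrocyte precursors (152 and 90.8 CPM) held the next levels. In endothelial cells Hes5 was down to 2 UMIs (WT) and 1 UMI (cKO), and in mural cells to 0. Of the radial glia UMIs of Hes5, 2385 of 3283 in WT and 1032 of 1616 in cKO were in noncycling cells with astrocyte markers. Cycling radial glia of WT had 201 CPM, under the level of WT ependymal cells.

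Hes1 was not confined to neural progenitors. Mural cells had 229.5 CPM in WT and 199 CPM in cKO and endothelial cells 112 and 111 CPM, beside 115 and 60.4 CPM in radial glia; with a stricter cell filter radial glia led in WT and endothelial cells in cKO. In intermediate progenitors Hes1 was down to 2 and 3 UMIs (1.85 and 1.82 CPM), so that both repressors were low in the cells that follow radial glia. Hes6 was highest where Hes1 and Hes5 were low, at 301 and 245 CPM in intermediate progenitors and 262 and 235 CPM in ventral progenitors, whose intervals overlapped; when 1 more marker gene was asked for, ventral progenitors led in both libraries. Radial glia had 137 and 111 CPM of Hes6 and excitatory neurons 112 and 111 CPM. Microglia held Hes6 UMIs at 48.2 and 53.5 CPM, while Hes5 had 1 and 0 UMIs there. Whether this Hes6 is expression or background RNA was not tested, and below it is taken as a level that background could reach.

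Shares of cells with a UMI differed in the same direction once every cell was thinned to 1000 UMIs. Hes5 was then found in 33.2% of 823 WT radial glia (30.0 to 36.5) and 19.7% of 620 cKO radial glia (16.6 to 23.0), and unthinned in 72.5% and 65.2%. Microglia, which should lack Hes5, had it in 0 of 53 WT and 0 of 27 cKO cells after thinning (upper limits of 6.72% and 12.8%), and the same held for Notch1 and Hes1, with medians of 9919 and 12051 UMIs per cell. Notch1 was found in 21.1% (18.4 to 24.1) and 26.6% (23.2 to 30.3) of thinned radial glia, Notch2 in 16.4% (13.9 to 19.1) and 21.5% (18.3 to 24.9), and Hes1 in 12% (9.89 to 14.4) and 6.45% (4.65 to 8.68), with overlapping intervals for both receptors and separate ones for Hes1 and Hes5. The Hes1 share of cKO radial glia lay under the upper limit of cKO microglia (12.8%), so at this depth it could not be told from background as a share. Notch2 had a UMI in 5.66% of thinned WT microglia (1.18 to 15.7), an interval that overlapped that of WT radial glia, and in 0 of 27 in cKO. Thinning left out 2 WT and 4 cKO radial glia with fewer UMIs.

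Between the libraries, radial glia had more Notch1 and Notch2 and less Hes1 and Hes5 in cKO. Notch1 went from 215 CPM in WT to 346 CPM in cKO, a log2 ratio of 0.68 (0.59 to 0.78) or 1.61-fold, and Notch2 from 143 to 240.7 CPM, a log2 ratio of 0.75 (0.63 to 0.87) or 1.68-fold. Hes1 went from 115 to 60.4 CPM, a log2 ratio of -0.93 (-1.11 to -0.75) or 1.91-fold lower, and Hes5 from 477 to 262 CPM, a log2 ratio of -0.87 (-0.95 to -0.78) or 1.82-fold lower. Per cell, the median count of Notch1 was 1 UMI in WT and 3 in cKO, and that of Hes5 was 2 in WT and 1 in cKO; these counts are not scaled, and the cells had medians of 7275 and 8853 UMIs. The highest count of Notch1 in a cell was 10 UMIs (WT) or 17 UMIs (cKO), and that of Hes5 was 38 or 29.

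These 4 genes passed the limit used here for a difference between libraries, which is at least 1.5-fold with an interval that leaves out 0 and at least 20 UMIs in the library with more. Such differences were frequent in these data. Of 11776 genes with enough UMIs in radial glia, 11.1% were higher and 21.8% lower in cKO by this rule, and 2 of the 10 genes on each side is close to that background. The count is therefore no result about the 10 genes as a set. The median log2 ratio over the 10 genes was 0.014, against -0.085 over all genes, and no replicate library shows how much of any difference is between samples.

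**Figure D2:**
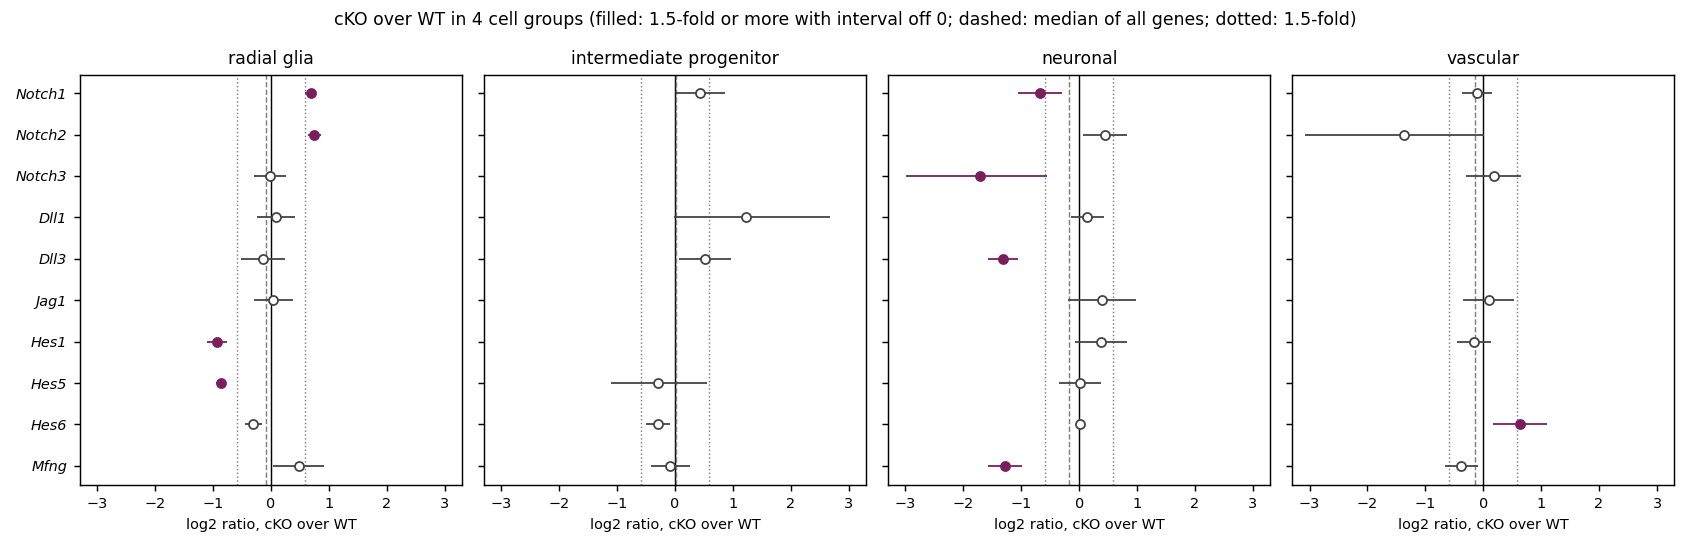
Log2 ratio of CPM in cKO over WT (x axis) for each gene (y axis) in radial glia, intermediate progenitors, neuronal cells and vascular cells, with 95% intervals; filled points pass 1.5-fold with an interval off 0, dashed lines mark the median of all genes and genes under 20 UMIs in both libraries are left out. In radial glia Notch1 (0.68) and Notch2 (0.75) lie to the right and Hes1 (-0.93) and Hes5 (-0.87) to the left.

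The other 6 genes did not pass the limit in radial glia. Notch3 (log2 -0.011), Dll1 (0.092) and Jag1 (0.039) had intervals that reached at most 0.42 from 0, and Dll3 (-0.14) had one from -0.52 to 0.23. With groups set on 2000 UMIs per cell, however, the ratio was -0.64 for Dll1 and -1.35 for Dll3, so these ligand values depend on which cells are called radial glia. Hes6 had a ratio of -0.31 (-0.45 to -0.16), which is 1.24-fold, and Mfng one of 0.48 (0.039 to 0.92), on 80 and 100 UMIs; with groups set on 2000 UMIs these were -0.043 and -0.086. Among radial glia with fewer than 2 ventral progenitor markers, a division made after the data were seen, 6 of the 10 genes passed, since Dll3 (-0.74) and Mfng (0.88) passed as well. The share of all genes that passed in this division was not computed, so the count is no result about the 10 genes.

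The radial glia of the libraries did not have the same makeup. Cells with at least 3 of 7 astrocyte markers and no cycling signature made up 57.3% of WT (53.9 to 60.7) and 45.2% of cKO radial glia (41.2 to 49.2), and cells with neither 23.3% and 35.7%, while the cycling share was 19.4% and 19.1%. Summed astrocyte marker RNA in radial glia was 1441 CPM in WT and 939 in cKO. The 7 markers were not even: log2 ratios were -1.81 for S100b, -1.61 for the water channel gene Aqp4, -1.41 for the gap junction gene Gja1, -0.75 for Aldh1l1, -0.30 for Slc1a2 and -0.15 (-0.32 to 0.022) for Fgfr3, while Gjb6 had 1.92 (0.42 to 3.71) on 5 and 17 UMIs. The summed markers of oligodendrocyte precursors were 811 and 327 CPM in the same cells. The log2 ratios of the 10 radial glia markers themselves ran from -0.46 to 0.25, with a median of -0.090. The part of these shifts in the differences of Notch genes over all radial glia was not tested, but the genes can be read within each class.

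**Figure D3:**
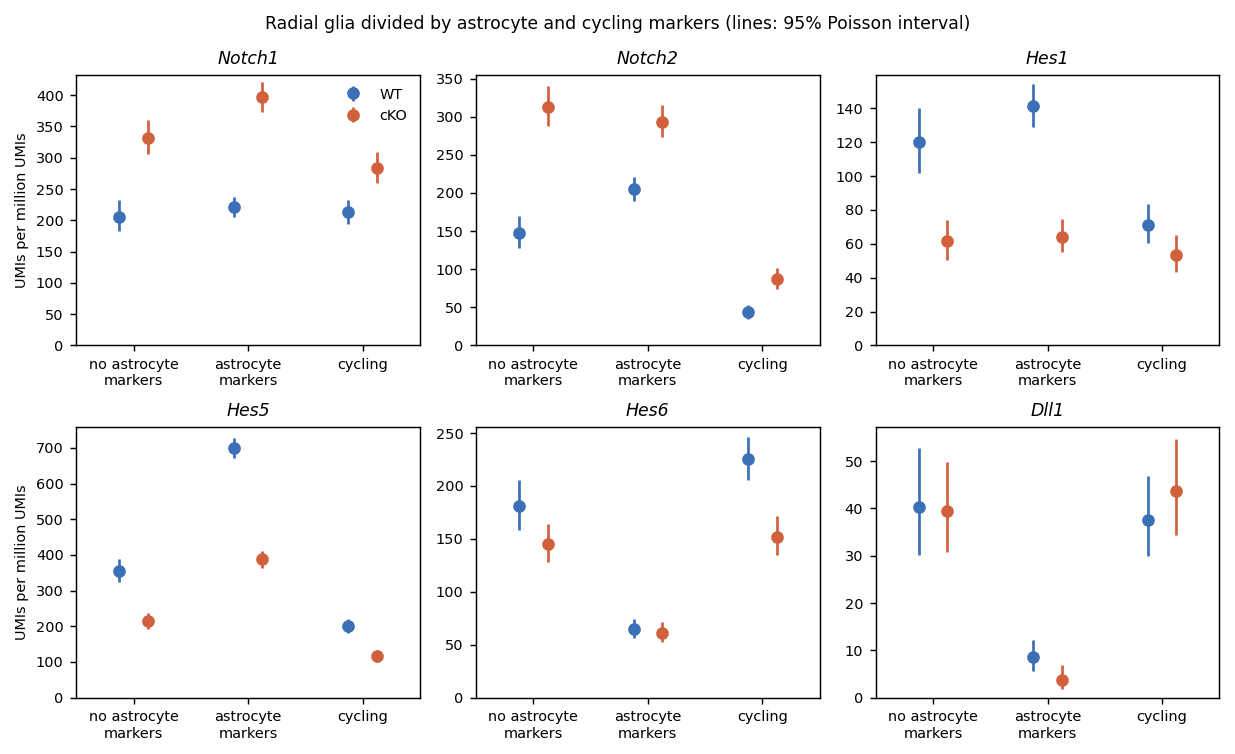
CPM (y axis, linear from 0) of 6 genes in noncycling radial glia without astrocyte markers, noncycling radial glia with astrocyte markers and cycling radial glia (x axis) of WT (blue) and cKO (orange), with 95% Poisson intervals. Hes5 was lower in cKO in all 3 classes, for example 699 CPM in WT and 388 in cKO among cells with astrocyte markers, and Notch2 higher in all 3.

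Hes5 was lower in cKO in each class of radial glia. It went from 354 to 215 CPM in cells without astrocyte markers (log2 -0.72, -0.92 to -0.52), from 699 to 388 CPM in cells with them (-0.85, -0.96 to -0.74) and from 201 to 116 CPM in cycling cells (-0.78, -1.03 to -0.54). Hes1 went from 120 to 61.4 CPM (-0.97) and from 141 to 64.3 CPM (-1.14) in the noncycling classes. In cycling cells it went from 71.0 to 53.4 CPM, a log2 ratio of -0.41 (-0.80 to -0.031) that did not reach 1.5-fold.

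The values of both receptors were above those of WT in each class of cKO radial glia. Notch1 went from 206 to 332 CPM (log2 0.69) without astrocyte markers and from 221 to 396 CPM (0.85) with them, and from 213 to 283 CPM (0.41, short of 1.5-fold) in cycling cells. Notch2 went from 147 to 313 CPM (1.08) without astrocyte markers and from 43.2 to 86.7 CPM (1.00) in cycling cells. With astrocyte markers Notch2 went from 205 to 293 CPM, a log2 ratio of 0.52 (0.37 to 0.67) that stayed under 1.5-fold.

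Counted per class, 2 genes were higher and 2 lower in cells without astrocyte markers, where 12.1% of all genes were higher and 19.3% lower by the same rule. In cells with astrocyte markers 1 gene was higher and 3 were lower, among them Dll1 (29 and 10 UMIs), against 10.5% and 20.5% of all genes. In cycling cells 1 was higher and 1 lower, against 13.5% and 16.8%. Hes6, the gene of committed progenitors, was highest in cycling radial glia (225 and 152 CPM) and lowest in those with astrocyte markers (65.1 and 61.3 CPM), which is the reverse of the order of Hes5 in both libraries. Noncycling cells without astrocyte markers had 181 and 145 CPM of Hes6. In cKO this value (258 UMIs) was close to that of cycling cells (265 UMIs), so their order there is not fixed by these counts.

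Hes5 and Hes6 were then looked for in the same cells, but the Hes6 shares could not be told from background. As CPM, Hes6 in radial glia was 137 (128.7 to 146.4) in WT and 111 (102.9 to 119.7) in cKO. The intervals of microglia were lower, at 32.0 to 69.7 and 33.1 to 81.7 CPM. After thinning to 2000 UMIs, 16.4% of 801 WT (13.9 to 19.1) and 16.3% of 613 cKO radial glia (13.5 to 19.5) had Hes6, against 12.8% of 47 WT (4.83 to 25.7) and 11.5% of 26 cKO microglia (2.45 to 30.2), so nothing is read from the radial glia with Hes6 alone or with both genes. Hes5 was found in 50.8% and 33.8% of the same radial glia and in 0 microglia of either library (upper limits of 7.55% and 13.2%). Among intermediate progenitors 37.7% of 146 WT cells (29.8 to 46.1) had Hes6 without Hes5, above the interval of WT microglia, and 32.6% of 172 cKO cells did (25.6 to 40.1), with an interval that overlapped that of cKO microglia.

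Radial glia with a Dll1 UMI, 101 of 825 in WT and 84 of 624 in cKO, had other levels of most of the other 9 genes than those without. These shares (12.2%, 10.1 to 14.7, and 13.5%, 10.9 to 16.4) have intervals that overlap those of microglia. There 2 of 53 WT (3.77%, 0.46 to 13) and 2 of 27 cKO cells (7.41%, 0.91 to 24.3) held a Dll1 UMI. With so few microglia the shares cannot be told from background, and the split is a description of these cells. As CPM, Dll1 in radial glia was 23.7 (20.2 to 27.6) in WT and 25.3 (21.4 to 29.5) in cKO. Microglia had 3.44 (0.417 to 12.4) and 5.09 (0.617 to 18.4). Those with a Dll1 UMI had 236 and 87.0 CPM of Hes5 in WT and cKO, against 521 and 297 CPM in cells without Dll1, a log2 ratio of -1.15 (-1.34 to -0.96) in WT and -1.77 (-2.09 to -1.47) in cKO. Hes1 had a log2 ratio of -1.12 in both libraries. Hes6 was 4.96-fold higher in cells with Dll1 in WT and 3.26-fold in cKO, Dll3 9.42-fold and 10.4-fold, and Mfng 12-fold and 9.95-fold.

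**Figure D4:**
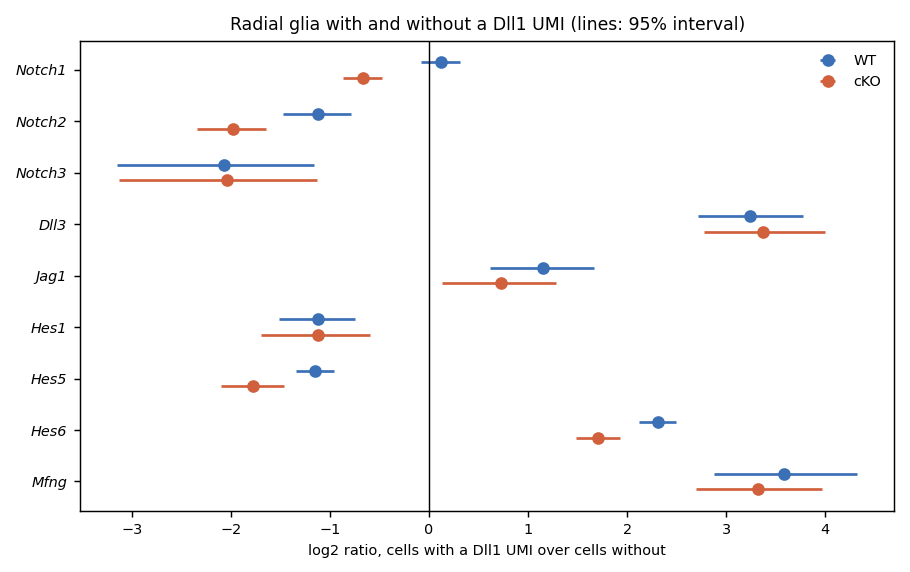
Log2 ratio of CPM in radial glia with a Dll1 UMI over radial glia without one (x axis) for the other 9 genes (y axis) in WT (blue) and cKO (orange), with 95% intervals. Dll3, Hes6, Mfng and Jag1 lie above 0 and Notch2, Notch3, Hes1 and Hes5 below 0 in both libraries, while Notch1 lies at 0.12 in WT and -0.67 in cKO.

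Cells with a Dll1 UMI were also deeper, with medians of 9800 and 11629.5 UMIs against 7010.5 and 8633, and 46 of the 101 WT and 39 of the 84 cKO cells were cycling. Within cycling radial glia alone the ratio for Hes5 was -2.25 in WT and -1.87 in cKO, and that for Hes6 1.67 and 1.63, while Dll3 was 4.52-fold and 2.99-fold and Mfng 5.47-fold and 4.65-fold higher in cells with a Dll1 UMI. Without astrocyte markers and without cycling it was -0.33 (-0.69 to 0.019) and -1.54 (-2.10 to -1.02) for Hes5 and 1.95 and 1.38 for Hes6. In that class Jag1 had a ratio of 1.06 (0.11 to 1.96) in WT but -1.09 (-2.47 to 0.050) in cKO. In radial glia with astrocyte markers only 21 WT and 8 cKO cells had a Dll1 UMI. The Hes5 ratio there was 0.12 (-0.14 to 0.37) in WT and -0.012 (-0.55 to 0.48) in cKO, with intervals that held 0. Hes6 had a ratio of 2.70 (2.25 to 3.14) in WT and 0.15 (-1.31 to 1.31) in cKO. Hes1 had 0.15 (-0.46 to 0.70) and -0.19 (-1.83 to 1.06) there, against -1.08 and -1.35 in cycling cells and -2.01 and -1.16 in cells with neither trait. Notch2 intervals held 0 in this class and in WT cycling cells (-0.18, -0.92 to 0.51), but not elsewhere. This class made up 452 of 724 WT and 274 of 540 cKO cells without a Dll1 UMI, so the ratios over all radial glia mix classes. In oligodendrocyte precursors, the cells with most Dll1, the Hes5 ratio was -0.46 (-0.86 to -0.074) in WT and 0.31 (-0.32 to 0.97) in cKO, and the Hes6 ratio 1.03 (0.63 to 1.43) and 0.052 (-0.46 to 0.58).

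In intermediate progenitors 0 of the 6 genes with enough UMIs passed the limit, where 14.2% of 7954 genes were higher and 19.1% lower in cKO. Notch1 went from 64.8 to 87.4 CPM (log2 0.43, 0.0094 to 0.86), Dll3 from 59.3 to 84.3 CPM (0.51, 0.072 to 0.96) and Hes6 from 301 to 245 CPM (-0.30, -0.51 to -0.080), all under 1.5-fold. Dll1 was counted 7 times in WT and 25 times in cKO, a log2 ratio of 1.23 whose interval (-0.023 to 2.68) reached 0. Mfng was at 113 and 107 CPM. In the noncycling majority (124 and 149 cells) 3 of the 6 genes with enough UMIs passed as higher in cKO, where 15.4% of genes were higher and 18.9% lower. Notch1 went from 37.1 to 64.6 CPM (0.80, 0.19 to 1.44), Dll3 from 49.1 to 86.4 CPM (0.82, 0.29 to 1.37) and Dll1 from 4 to 21 UMIs (1.77, 0.20 to 3.77). In the 24 and 23 cycling cells Notch1 had a ratio of 0.076 (-0.53 to 0.70) and Dll3 one of -0.29 (-1.13 to 0.58). Hes6 was there the 1 gene past the limit, from 469 to 278 CPM (-0.76, -1.16 to -0.36), where 11% of genes were higher and 11.7% lower. Over all intermediate progenitors the 8 neuronal markers summed to 3068 CPM in WT and 2288 CPM in cKO, with log2 ratios from -2.87 for Syt1 to 0.33 for Rbfox3, among them -1.10 for Stmn2 and -0.96 for Gap43. Summed radial glia markers were 363 and 305 CPM there and summed cycling markers 1092 and 1018 CPM; the part of these shifts in the values of the Notch genes was not tested.

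Neuronal cells had less Dll3 and Mfng in cKO. Dll3 went from 12.2 to 4.89 CPM (382 and 181 UMIs, log2 -1.31, -1.58 to -1.06) and Mfng from 9.67 to 4.00 CPM (304 and 148 UMIs, -1.28, -1.57 to -0.99). Notch1 (139 and 103 UMIs, -0.67) and Notch3 (25 and 9 UMIs, -1.71) were lower too, whereas Hes6 was at 104.9 and 105.6 CPM (0.0092, -0.058 to 0.076). By the rule 4 genes were lower and 0 higher, where 29.4% of 13458 genes were lower and 12.3% higher. Of these 4, Notch1 did not pass under 4 of 9 other settings and Notch3 under 1, while Dll3 and Mfng passed under all 9. The Notch1 level of neuronal cells (4.42 and 2.78 CPM) was under that of microglia (12.1 and 12.7 CPM), so it is not shown to be above background. Nor is that of Mfng, which had 62.0 and 53.5 CPM in microglia, or of Notch3, which had 1 and 0 UMIs there. Dll3 had 0 UMIs in microglia of both libraries. With 3 UMIs allowed, the neuronal Dll3 level is above the microglia limit in WT and under it in cKO.

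Neurons were also read by class. In inhibitory neurons Mfng went from 27.7 to 5.62 CPM (186 and 37 UMIs, log2 -2.30, -2.85 to -1.79) and Notch1 from 14.3 to 6.38 CPM (-1.17, -1.73 to -0.63). In excitatory neurons Mfng went from 4.03 to 2.18 CPM (-0.89, -1.41 to -0.38), and Notch1 had a ratio of -0.025 (-0.83 to 0.79). The difference between the classes was not tested. The Mfng levels of both classes were under the intervals of microglia (43.4 to 85.8 CPM in WT, 33.1 to 81.7 in cKO), so they are not shown to be above background. Dll3 was lower in both, with -1.31 in excitatory and -1.46 in inhibitory neurons. Inhibitory neurons were 30.1% of WT and 24.8% of cKO neuronal cells, and summed radial glia markers in neuronal cells were 119.9 and 86.8 CPM; the part of either in these differences was not tested.

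In vascular cells most of the measured genes did not pass. Notch1 (173 and 161 CPM, log2 -0.10), Notch3 (46.2 and 52.4 CPM, 0.18), Jag1 (54.4 and 57.9 CPM, 0.091) and Hes1 (137 and 122 CPM, -0.16) all had intervals that held 0. Mfng had 162 and 125 CPM (-0.38, -0.67 to -0.098), which is under 1.5-fold. Its ratio was -0.92 with the mean of each cell's CPM and 0.19 (-0.64 to 0.93) with a stricter cell filter. Notch2 had 33 and 5 UMIs, or 11.8 and 4.60 CPM (-1.36, -3.08 to 0.0049), with an interval that just held 0. The interval left out 0 with doublets kept (-1.38, upper bound -0.019). The ratio was -1.61 with the mean of each cell's CPM and -0.60 (-1.70 to 0.38) with groups set on 2000 UMIs per cell. Microglia had more Notch2 (39.6 and 33.1 CPM), so the vascular level of Notch2 is not shown to be above background. Hes6 alone passed the limit, from 39.0 to 60.7 CPM on 109 and 66 UMIs (0.64, 0.17 to 1.09), where 12.2% of 9363 genes were higher and 22.1% lower in cKO. Its call was lost when 1 more marker gene was asked for and with the mean over cells. Both vascular levels of Hes6 lay within the intervals of microglia (32.0 to 69.7 CPM in WT, 33.1 to 81.7 CPM in cKO), so they could not be told from background. The ratio of Hes1 in radial glia (-0.93) and in vascular cells (-0.16, -0.46 to 0.13) had intervals that did not overlap, but the difference between groups was not tested, and with a stricter cell filter the vascular ratio was 1.00.

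Mural cells that met no endothelial rule were 13.2% of vascular cells in WT (8.57 to 19.2) and 26.9% in cKO (17.5 to 38.2). Without the cells that met both vascular rules, the log2 ratio of Notch3 in vascular cells was 1.64 in place of 0.18. Within mural cells Notch3 was 172 CPM in WT and 223 CPM in cKO (0.37, -0.53 to 1.31).

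Oligodendrocyte precursors, 306 cells in WT and 152 in cKO, also had less Hes1 and Hes5 in cKO. Hes1 went from 76.5 to 19.9 CPM on 142 and 21 UMIs (log2 -1.95, -2.68 to -1.28), and Hes5 from 152 to 90.8 CPM (-0.74, -1.09 to -0.40). Dll1 was higher in cKO, at 121 CPM against 66.3 (0.87, 0.50 to 1.24), while Notch1 (0.25), Dll3 (-0.15) and Hes6 (0.17) had intervals that held 0. By the rule 1 gene was higher and 2 lower, where 11.9% of 9167 genes were higher and 19.5% lower. In the same cells the summed markers of oligodendrocyte precursors were 5819 CPM in WT and 4047 in cKO, summed radial glia markers 2544 CPM and 1683 CPM and summed cycling markers 1311 and 805 CPM. Their part in these values was not tested. Ependymal cells (62 and 22) had less Hes1 (103 and 10 UMIs, log2 -1.76, -2.86 to -0.82) and Hes5 (218 and 29 UMIs, -1.30, -1.91 to -0.74) in cKO. They had more Hes6 (39 and 29 UMIs, 1.18, 0.44 to 1.91) and Notch1 (0.75, 0.29 to 1.19). The ependymal levels of Hes6 (39.7 and 90.1 CPM) had intervals that overlapped those of microglia, so they could not be told from background. The share of all genes past the limit was not computed for ependymal cells. Oligodendrocyte precursors and ependymal cells can both include cells that also met the radial glia rule.

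Other genes of the pathway were read from a list of 48 set out by role. In radial glia 43 of them had enough UMIs, of which 9 were higher and 5 lower in cKO, where 11.1% of all genes were higher and 21.8% lower. The remaining receptor, Notch4, was lower (7.12 and 3.56 CPM, log2 -1.0). Among the ligands Dll4 did not pass (0.62, -0.38 to 1.64), and none of the 5 glycosyltransferases passed, Lfng being at 103 and 112 CPM (0.13). Of the proteases that cut ligand, receptor or precursor, Furin was higher (1.08) and Adam10, which makes the first cut after ligand binding, lower (-0.71). The atypical ligand gene Dlk1 (1.19), the coactivators Maml1 (1.18) and Maml3 (1.00) and Numbl (0.73), a relative of the Notch inhibitor Numb, were higher as well, and Cntn1 (-1.73) and the ubiquitin ligase Mib2 (-1.34) lower. The DNA-binding partner Rbpj was at 41.7 and 43.1 CPM (0.046).

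Hey2 and Heyl, which encode Hes-related repressors, were higher in cKO radial glia. Hey2 went from 7.41 to 17.8 CPM (log2 1.26, 0.77 to 1.77) and Heyl from 4.80 to 10.9 CPM (1.18, 0.56 to 1.83) in radial glia, and Hey1 from 93.6 to 111 CPM (0.25, 0.092 to 0.41). In vascular cells Heyl was lower in cKO (150 and 12 UMIs, -2.28), as were Dll4 (79.5 and 42.3 CPM, -0.91), a ligand of arterial endothelium, and Notch4 (53.3 and 19.3 CPM, -1.47), a receptor of endothelial cells. In the same vascular cells summed mural markers were 4512 CPM in WT and 3629 CPM in cKO, summed cycling markers 502 and 208 CPM and summed endothelial markers 10146 and 11002 CPM; their part in these differences and in those of the 10 genes was not tested.

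Mib1, Tle3 and Hdac1 are named because they passed the limit in the same direction in all 4 main groups. The share of all genes that did so was not computed, so this is no result about the pathway. Mib1, a ubiquitin ligase that ligands need in order to signal, had log2 ratios of 1.02 in radial glia, 1.38 in intermediate progenitors, 1.42 in neuronal cells and 1.01 in vascular cells. The corepressor Tle3 was higher by 1.14, 0.97, 0.86 and 0.93 in the same order, and the deacetylase gene Hdac1 had ratios of -1.09, -1.09, -1.19 and -1.49. The ratios of Notch1 were 0.68, 0.43, -0.67 and -0.10. In neuronal cells 8 of the 45 measured pathway genes were higher and 8 lower, where 12.3% of all genes were higher and 29.4% lower. In vascular cells 6 of 38 were higher and 6 lower, against 12.2% and 22.1% of all genes.

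Genes with the pattern most like that of a member over 20 levels (10 cell groups in 2 libraries, log2 of CPM + 10) were named from 13049 genes outside the marker lists. For Notch1 these were Nes, which encodes nestin (Pearson r = 0.94), and Vim, which encodes vimentin (0.92), both filament proteins of radial glia. Hes5 was most like Tlcd1 (0.97), Creb5 (0.97) and Kcnj10 (0.97), the last a potassium channel of glia, and Hes1 most like Plat (0.95), tissue plasminogen activator. Dll1 was most like Smoc1 (0.95) and Sox8 (0.95), Notch3 most like Daam2 (0.98) and Cox4i2 (0.96), and Hes6 most like Bag4 (0.91), Skida1 (0.91) and Insm1 (0.90), a factor of neural progenitors. Notch2 was most like Pla2g7 (0.94), Dll3 like Myt1 (0.90) and Jag1 like Fgd6 (0.88). The levels share library and depth within each library, so these values describe the pattern only.

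On the GRCm38 annotation of GENCODE M21, Notch1 lies at chr2:26457903-26516663, Notch2 at chr3:98013527-98150361, Notch3 at chr17:32120820-32166852, Dll1 at chr17:15367354-15376872, Dll3 at chr7:28293553-28302238, Jag1 at chr2:137081456-137116644, Mfng at chr15:78755882-78773475, Hes1 at chr16:30064384-30067796, Hes5 at chr4:154960923-154962371 and Hes6 at chr1:91411483-91414038. All 10 gene identifiers in the files matched this annotation, whose build is not the mm9 that the submitters name. Notch1, Notch3, Dll1 and Hes5 each overlap a non-coding gene of the other strand. The sources used here do not say if the counting was stranded, and without strand the reads of such pairs cannot be told apart. Notch2 shares 204 identical bases with Gm42820, a gene model inside it on the same strand, and its counts could be split there. No other member had a stretch of at least 100 bases with at least 95% identity to another gene.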

How the data were processed

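The deposited data are 1 matrix of raw UMI counts for each library, whose header names software version 3.0.1. The submitters' processing notes name STAR, Cell Ranger 2, Seurat and mm9, while the reference used here for names, positions and sequences is GRCm38, and no coordinate was converted. A deposited matrix of both libraries, which holds 94.5% of the cKO counts, served as an alternative only. Barcodes with at least 500 genes and at most 10% mitochondrial UMIs were kept (6766 WT, 6080 cKO); 35.9% and 32.9% of barcodes exceeded the mitochondrial limit. Scrublet (scanpy 1.11.5) marked 165 WT (2.44%) and 106 cKO doublets (1.74%) at the automatic WT threshold of 0.244 in both libraries, since the automatic cKO threshold of 0.564 marked 0.

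A cell joined a group with UMIs of at least 5 of 10 radial glia, endothelial or mural markers, Eomes and 3 of 7 intermediate progenitor markers, or 4 of 8 neuronal markers with at most 2 radial glia markers; oligodendrocyte precursors and microglia needed 4 of 7, ventral progenitors 2 of 4 with 4 of 8 cycling markers, ependymal cells 3 of 6 with Foxj1, excitatory neurons 3 of 6 and inhibitory neurons 3 of 7. Cells meeting certain pairs of rules, such as a neural and a non-neural rule, were left out (166 WT, 106 cKO), and 734 and 773 met none. Also in no group used here were 21 WT and 20 cKO cells that met both the radial glia and the intermediate progenitor rule. The same holds for 11 and 6 other non-neural cells. Other pairs were not left out. Cells that met the radial glia rule and that of oligodendrocyte precursors or ependymal cells were placed in the latter groups. Radial glia that met the inhibitory neuron rule stayed radial glia. Intermediate progenitors that met the excitatory neuron rule stayed intermediate progenitors. UMIs were summed per group; levels carry exact Poisson, shares Clopper-Pearson and log2 ratios exact conditional binomial intervals (scipy 1.17.1). For the mean of each cell's CPM, calls used the interval of the summed counts moved to the new ratio. That interval does not cover the spread between cells. A count of 0 was taken to allow 3 UMIs. The ratio code was tested on simulated counts. Alternatives were other filters (the stricter asked for 1000 genes and at most 5% mitochondrial UMIs), marker numbers, scalings (edgeR 4.0.16 for TMM factors) and limits. Similar transcripts were searched with blastn 2.17.0. No paired analysis was possible because each genotype has 1 library.

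The named genes are all 10 members, pathway genes past the limit or of the receptor, ligand, glycosyltransferase and target roles, and the most similar genes by r, up to 3 per member. The genes most similar to Mfng are not reported here. Members, lists and rules were chosen with earlier results of these data known.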

Additional observations from a re-analysis of the deposited data

Results flagged for a closer look

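Notch1 was singled out because its libraries differed in opposite directions in different cell groups. Its log2 ratio of cKO over WT was 0.68 in radial glia (1482 and 2138 UMIs) and 0.75 in ependymal cells (120 and 66 UMIs from 62 and 22 cells), but -0.67 in neuronal cells (139 and 103 UMIs). The neuronal ratio did not pass the limit under 4 of 9 other settings, and by class it was -1.17 in inhibitory and -0.025 (-0.83 to 0.79) in excitatory neurons. The difference between groups was not tested, since each rests on 1 library per genotype. The levels themselves lie far apart, at 215 and 346 CPM in radial glia against 4.42 and 2.78 CPM in neuronal cells. Microglia had 12.1 CPM (4.85 to 24.8) in WT and 12.7 CPM (4.13 to 29.7) in cKO. Thus neither the neuronal level nor that of inhibitory neurons (14.3 and 6.38 CPM) is shown to be above background.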

How the results depend on the processing

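The lower Hes1 and Hes5 and the higher Notch1 and Notch2 of cKO radial glia passed the limit under all 10 other settings that gave a ratio, with log2 ratios from -1.08 to -0.82 for Hes1, -0.94 to -0.76 for Hes5, 0.63 to 0.79 for Notch1 and 0.67 to 0.86 for Notch2; at a 2-fold limit 0 of the 10 genes passed in radial glia in place of 4, and 5 passed with the stricter filter, groups set on 2000 UMIs, TMM factors or the mean of each cell's CPM. In intermediate progenitors the count of 0 became 2 with a stricter cell filter or TMM factors and 1 with doublets kept, with groups set on 2000 UMIs or with the mean of each cell's CPM. In neuronal cells the count of 4 became 2 with the stricter filter and 3 with 1 more marker gene, groups set on 2000 UMIs, a 2-fold limit or a minimum of 50 UMIs. With TMM factors it was 4 with other genes, since Notch1 (-0.50) no longer passed and Notch2 passed as higher (0.62, 0.23 to 1.01). In vascular cells the count of 1 became 3 with the stricter filter, 2 with doublets kept, with the mean of each cell's CPM or without cells of both vascular lists (added after seeing the data), and 0 with 1 more marker gene or a 2-fold limit. The share of all genes past the limit was not computed under these settings, so the counts are no result about the 10 genes as a set. Of 312 log2 ratios under other settings, 274 stayed within the interval of the reported value and 38 left it. These ratios are those of the 10 genes in radial glia, intermediate progenitors, neuronal and vascular cells, where no gene past the limit changed sign; the other cell groups and classes and the other pathway genes were not recomputed. Genes not past the limit did change sign, among them Mfng in radial glia (0.48 to -0.086), Jag1 (0.39 to -1.84) and Hes1 (0.37 to -1.03) in neuronal cells and Mfng in vascular cells (-0.38 to 0.19). TMM factors raised every log2 ratio by 0.11 in radial glia and by 0.17 in neuronal cells. The cause of these shifts was not tested. The cell group with the highest level was the same in 14 of 20 pairs of gene and library with the stricter filter, where mural cells were no longer highest for Notch3 in cKO, Jag1 in WT and Hes1 in both, Notch1 in WT moved from radial glia to mural cells and Dll3 in cKO from oligodendrocyte precursors to intermediate progenitors, in 17 with 1 more marker gene and in at least 18 under the rest, where Mfng in cKO moved from endothelial cells to intermediate progenitors with groups set on 2000 UMIs. No paired analysis was possible because each genotype has 1 library. Fewer than 20 UMIs per library were counted for Notch2, Notch3, Jag1 and Hes1 in intermediate progenitors and for Dll1, Dll3 and Hes5 in vascular cells, and mural cells numbered only 23 and 21, so these values have wide intervals.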
